A study of Mus musculus with 96 samples.

Results

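The members described here are 10 enzymes that remove superoxide and peroxides: the peroxiredoxin genes Prdx1, Prdx2, Prdx3, Prdx5 and Prdx6, the catalase gene Cat, the glutathione peroxidase genes Gpx1 and Gpx4, and the superoxide dismutase genes Sod1 and Sod2. They were chosen by gene symbol, and each symbol matched 1 row of a table of 49466 genes, with reads for 20754 of them. All 10 had reads in all 91 cells kept here, and no filter on low values removed a member.

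Single cells came from C57/Bl6J fetal livers taken at embryonic day 14.5, an organ that makes red blood cells before birth, and their polyA RNA was sequenced by Smart-seq2, a full-length single-cell method. All cells had first been depleted of cells carrying lineage, Sca-1, CD16/32, CD41 or Ter119 surface proteins, and were then sorted by Kit, CD71 and CD24. A single plate of 96 wells held 24 wells of each of 4 gates: BFUE (burst-forming unit erythroid, the earlier progenitor), an intermediate gate of 25 to 35% CD71/CD24 expression (here the lower intermediate), an intermediate gate of 50 to 60% (the upper intermediate), and CFUE (colony-forming unit erythroid, the later progenitor). The comparisons ask how these enzymes differ between stages of early red cell formation. The BFUE gate was also split at 100 CPM of Cd34 (CPM is a read count divided by the reads of the cell, on a fixed scale), a surface marker of early blood progenitors. The labels give no genotype, transgene or treatment for any group, and they do not say how many embryos were used or whether they were pooled. Each gate is therefore 1 sample, cells are not replicates of it, and no test between gates was possible. Each gate also fills 3 columns of the plate, so effects of column and gate cannot be told apart.

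Superoxide, which leaks from the mitochondrial respiratory chain and is made by NADPH oxidases, is turned into hydrogen peroxide by the superoxide dismutases, Sod1 in the cytosol and Sod2 in mitochondria. Hydrogen peroxide is then removed by catalase in peroxisomes, by glutathione peroxidases that use glutathione, and by peroxiredoxins, most of which are reduced again by thioredoxin. Red cells carry haemoglobin, iron and oxygen together, and Prdx2, catalase and Gpx1 are known as the main peroxide-removing enzymes of the mature red cell.

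All 10 are protein-coding genes, placed here by GENCODE coordinates of GRCm38, and the deposited counts are per gene. Prdx1 lies at chr4:116685544-116700822 (plus strand) and Prdx2 at chr8:84969587-84974834 (plus strand). Prdx3 and Prdx5 are both on chromosome 19, at chr19:60864051-60874556 (minus strand) and chr19:6906697-6910106 (minus strand), and Prdx6 is at chr1:161240112-161251219 (minus strand). Cat is at chr2:103453849-103485160 (minus strand), Gpx1 at chr9:108338903-108340343 (plus strand) and Gpx4 at chr10:80047166-80056439 (plus strand). Sod1 is at chr16:90220754-90226329 (plus strand) and Sod2 at chr17:13006846-13040063 (plus strand).

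Gpx1 and Gpx4 carry selenocysteine in the active site, and the codon for it is a TGA that elsewhere ends translation, so these members need the cell's selenoprotein machinery as well as their own mRNA. The stretches of coding sequence around this codon are shown because they set these members apart from the other 8. The codon, in capitals, is at chr9:108339451-108339453 in Gpx1 (codon 47) and at chr10:80054737-80054739 in Gpx4 (codon 73) of GRCm38, both on the plus strand and inside coding exons.
Gpx1: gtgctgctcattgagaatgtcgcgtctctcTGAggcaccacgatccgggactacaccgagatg
Gpx4: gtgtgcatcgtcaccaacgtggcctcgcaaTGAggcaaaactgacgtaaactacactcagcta

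The promoter of Prdx3, a member whose level was higher in each later gate, is shown for the motifs of erythroid and stress-response factors that were searched in all promoters. The stretch is RefSeq sequence of GRCm38.p6 at chr19:60874557-60874788, on the minus strand, from 250 to 19 bases before the start of the gene, and the capitals mark 2 matches to CCNCNCCC, the letters of a CACCC box.
Prdx3: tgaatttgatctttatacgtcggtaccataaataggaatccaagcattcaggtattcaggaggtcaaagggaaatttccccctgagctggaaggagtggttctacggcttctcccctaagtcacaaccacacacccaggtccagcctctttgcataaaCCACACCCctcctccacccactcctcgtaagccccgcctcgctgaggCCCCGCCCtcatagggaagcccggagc

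Windows of 250 bases before to 50 after the start were found in the RefSeq table for 9 of the 10 members, with 12 windows in all, and both strands were searched. CCNCNCCC was present in all 9, in 11 of the 12 windows, and in 49.5% of all 32851 windows. NGATAA, the letters of a GATA site, was present in a window of Gpx4 alone among the members, and in 25.3% of all windows. TGACNNNGC, the core of the antioxidant response element, was present for Prdx1 and Sod1, and in 12.4% of all windows.

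Kept cells were those with 50000 reads or more: 23 BFUE, 21 lower intermediate, 24 upper intermediate and 23 CFUE, with 947458 to 3785903 reads each. No pair of wells held identical counts. Of the BFUE cells, 8 had at least 1036 CPM of Cd34 (Cd34-high cells) and the other 15 at most 5.16 CPM, with none in between. Of 8 erythroid progenitor markers all but Nfe2 (302 against 249 CPM) were lower in the Cd34-high cells than in the other BFUE cells. Klf1 was at 18.5 against 657 CPM and Gata1 at 12.7 against 411 CPM, while 6 of the 8 still reached 10 CPM in the Cd34-high cells. Ratios of the members in CFUE to BFUE, and the counts of each gene list, are therefore given with and without them. The CFUE cell of well D10 also stands apart, with 6361 genes detected, the fewest of the kept cells, and 947458 reads, the fewest as well. Where this cell sets a printed extreme of a member or moves a call, the value without it is given too.

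Prdx2 and Prdx3 were the only 2 of the 10 members at least 1.5-fold higher in CFUE than in BFUE cells, and none was lower by that much. Of the 8701 genes measured in that comparison (10 CPM or more in either group), 13.7% were higher and 29.6% lower by 1.5-fold or more, so 2 of 10 is near the share of all genes that were higher, while 0 of 10 lower is below the share of all genes. The median log2 ratio was 0.33 over the members and -0.14 over all measured genes. Without the Cd34-high cells the counts were again 2 higher and 0 lower, against 13.6% and 24.9% of 8246 genes, and the medians were 0.17 and -0.11. No interval here covers more than counting error, and reads without molecular identifiers are not independent molecules.

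Between BFUE and the lower intermediate gate 3 members were higher and none lower, against 10.1% and 24.3% of 8605 genes. Prdx2, Prdx3 and Sod2 were the 3. Which members passed depended on plate rows: in rows E to H Prdx2 was at 1.42-fold and Prdx6 at 1.69-fold. Without the Cd34-high cells none of Prdx2, Prdx3 and Sod2 passed 1.5-fold, with log2 ratios of 0.51, 0.56 and 0.38. From the lower to the upper intermediate gate no member passed 1.5-fold in either direction, against 7.34% of 7807 genes higher and 9.27% lower. From the upper intermediate gate to CFUE none passed either, against 7.98% of 7743 genes higher and 9.7% lower.

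**Figure D1:**
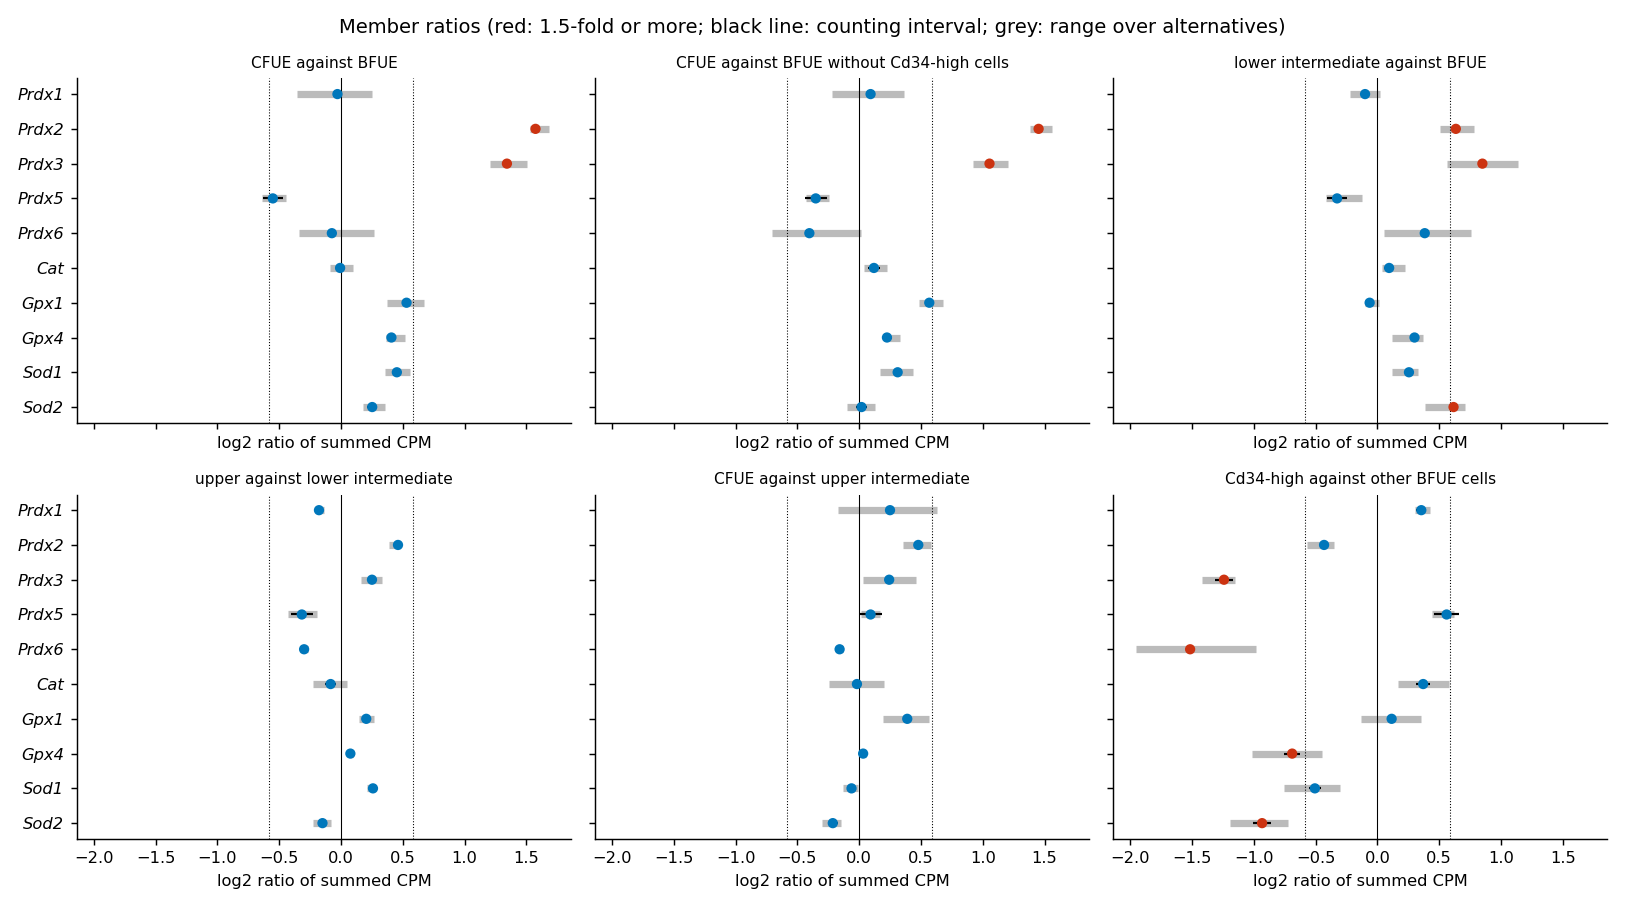
Log2 ratio of summed CPM (horizontal axis) for each member (vertical axis) in the 6 comparisons: points are ratios, red where 1.5-fold or more (dotted lines), black bars the 95% counting interval and grey bars the range over alternative settings. Prdx2 and Prdx3 lie beyond 1.5-fold in both comparisons of CFUE with BFUE, and Prdx3, Prdx6, Gpx4 and Sod2 lie below it in the Cd34-high cells.

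Prdx2, a cytosolic peroxiredoxin and one of the most abundant proteins of the red cell, had a higher level in each later gate. Its lowest, median and highest cell values were 285, 627 and 1015 CPM in the 8 Cd34-high cells and 403, 861 and 1380.1 CPM in the other 15 BFUE cells. They were 922, 1215 and 1860.3 CPM in the lower intermediate, 1137, 1692 and 2890.2 CPM in the upper intermediate, and 1104, 2389 and 4042 CPM in CFUE cells. Neighbouring gates overlapped in range, but their interquartile ranges did not at any step, and 21 of 23 CFUE cells lay above every BFUE cell. The summed level was 806 CPM (95% exact Poisson interval 797 to 815) in BFUE, 1251 in the lower and 1721 in the upper intermediate, and 2397 CPM (2381 to 2414) in CFUE. The steps were 1.55-fold, 1.38-fold and 1.39-fold, each higher in the later gate. CFUE exceeded BFUE by 2.98-fold (exact binomial interval 2.94 to 3.01), and by 2.73-fold without the Cd34-high cells. Its annotated exons overlap those of Rnaseh2a and Junb, so reads there may have been shared or discarded, and the pseudogene Tdpx-ps1 shares 8.96% of its 50-base stretches.

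Prdx1, the closest relative of Prdx2 and also cytosolic, had no such order. Its cell medians were 655 CPM in Cd34-high cells, 502 in other BFUE cells, 502 in the lower intermediate, 473 in the upper intermediate and 494 CPM in CFUE. The cells ranged from 406 to 872 CPM in BFUE and from 282 to 2909.9 CPM in CFUE, where wells D10 and A10 (1373 CPM) stood above all other cells of the plate. Summed levels in CFUE and BFUE were 565 and 576 CPM, a ratio of 0.980 (1.07 against the other BFUE cells), and in CFUE without D10 the level was 500.4 CPM. Without both D10 and A10, where 7422 genes were detected in A10, it was 463 CPM. The CFUE cell was the higher in 31.6% of CFUE and BFUE cell pairs, and in 40.0% of pairs with the other BFUE cells. In the upper plate rows (A to D), which hold both wells, the log2 ratio was 0.25, and in the lower rows (E to H) it was -0.35. All 8 Cd34-high cells were above the median of the other BFUE cells, with a ratio of 1.28. The pseudogenes Gm21399 and Gm7204 share 7.48% and 6.33% of its 50-base stretches.

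The balance of Prdx2 and Prdx1 reads therefore differed between gates, as the plot of read ratios by cell shows. Prdx2 reads per Prdx1 read had cell medians of 0.873 in Cd34-high cells, 1.52 in other BFUE cells, 2.61 in the lower intermediate, 3.51 in the upper intermediate and 4.91 in CFUE. Summed ratios were 0.959, 1.65, 2.33, 3.62 and 4.24 in the same order. In CFUE the ratio ranged from 1.27 in well D10 to 10.4 in well A12, a wider range than in any other gate, and without D10 the summed ratio was 4.72. These are ratios of reads, not of molecules, since the annotated transcripts differ in length.

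**Figure D2:**
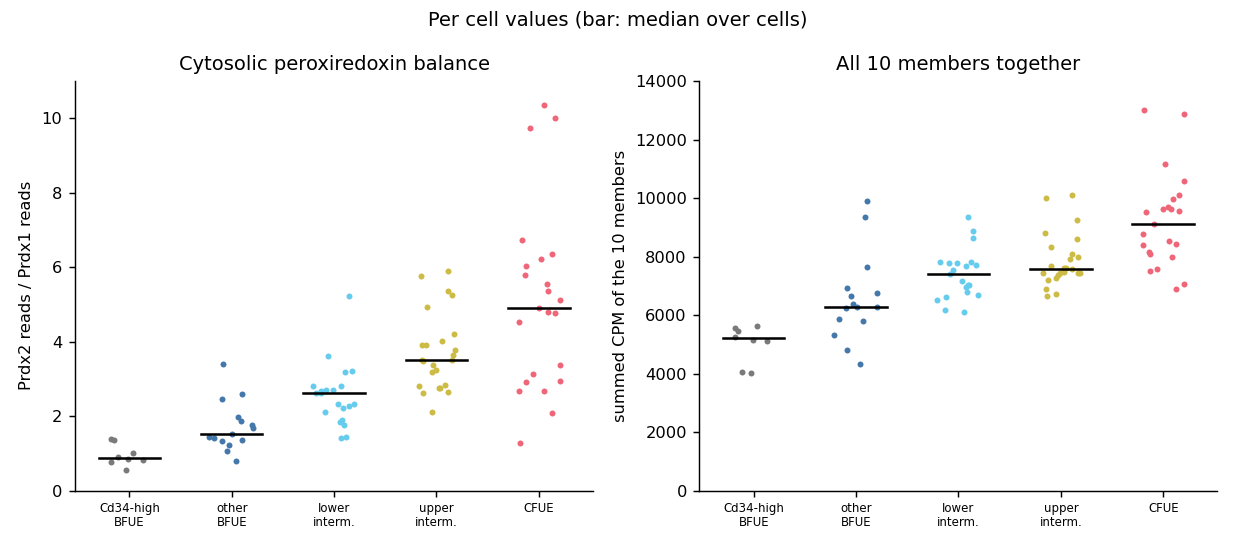
Prdx2 reads per Prdx1 read (left) and summed CPM of the 10 members (right) in each cell, by group, with the bar at the median over cells. The ratio medians run from 0.873 in Cd34-high BFUE cells to 4.91 in CFUE cells, and the summed medians from 5199.6 to 9122 CPM.

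Prdx3, the peroxiredoxin of the mitochondrial matrix, was the other member past 1.5-fold. Its lowest, median and highest cell values were 1.28, 173 and 332 CPM in Cd34-high cells, 199, 349.7 and 752 CPM in other BFUE cells, and 450.3, 742 and 1016 CPM in CFUE. The lowest of them, in well E2, rested on 2 reads. Between these lay the intermediate gates, with medians of 559 and 620.0 CPM. The ranges overlapped, and 11 of 23 CFUE cells lay above every BFUE cell while all 23 lay above the BFUE median. CFUE exceeded BFUE by 2.53-fold (2.48 to 2.59), from 299.9 to 760.3 summed CPM, and by 2.08-fold without the Cd34-high cells. The first step, BFUE to lower intermediate, was 1.80-fold, and 1.48-fold without the Cd34-high cells. The later steps were 1.19-fold and 1.18-fold, and there the interquartile ranges overlapped.

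Prdx5, a peroxiredoxin of mitochondria, peroxisomes and cytosol, had a lower level in CFUE than in BFUE. Its exons overlap those of Trmt112. Its cell medians were 104 CPM in Cd34-high cells, 71.1 in other BFUE cells, 72.5 and 53.9 in the intermediate gates and 55.5 CPM in CFUE. The interquartile ranges of neighbouring gates all overlapped. Its summed level was 86.2 CPM in BFUE and 58.8 CPM in CFUE, 1.47-fold lower (1.39 to 1.55) and so within 1.5-fold. Without well D10, its highest CFUE cell, its log2 ratio of -0.60 passed that limit. With the Cd34-high cells left out it was 1.28-fold lower.

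Prdx6, a 1-Cys peroxiredoxin that uses glutathione and also acts on phospholipids, had its highest summed level and cell median in the lower intermediate gate. Its lowest, median and highest cells there were 1284, 1829 and 2353 CPM. The Cd34-high cells were at 294, 602 and 996 CPM, and the other BFUE cells spread widely at 505, 1298 and 4075 CPM. In CFUE cells the values were 395, 1347 and 3018 CPM, the lowest in well D10, without which it was 1028 CPM. Wells A1 (4075 CPM) and D3 (3412 CPM) lifted the BFUE sum, and D3 is also the deepest cell. Summed levels were 1901 CPM in the lower intermediate gate, 1831 CPM in other BFUE cells, 1358 CPM in these without A1 and D3, and 1385 CPM in CFUE. The log2 ratio of the lower intermediate gate to the other BFUE cells was only 0.05. In plate rows A to D the other BFUE cells were the higher group, at 2309 against 1899 CPM. In rows E to H they were the lower group, at 1343 against 1903 CPM. The CFUE to BFUE ratio was 0.950, or 0.756 against the other BFUE cells. The direction of CFUE against BFUE differed between plate rows: the log2 ratio was -0.34 for the upper rows and 0.27 for the lower rows. The lower intermediate gate exceeded the upper by 1.23-fold, and 8 of 24 upper intermediate cells lay below every lower intermediate cell.

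**Figure D3:**
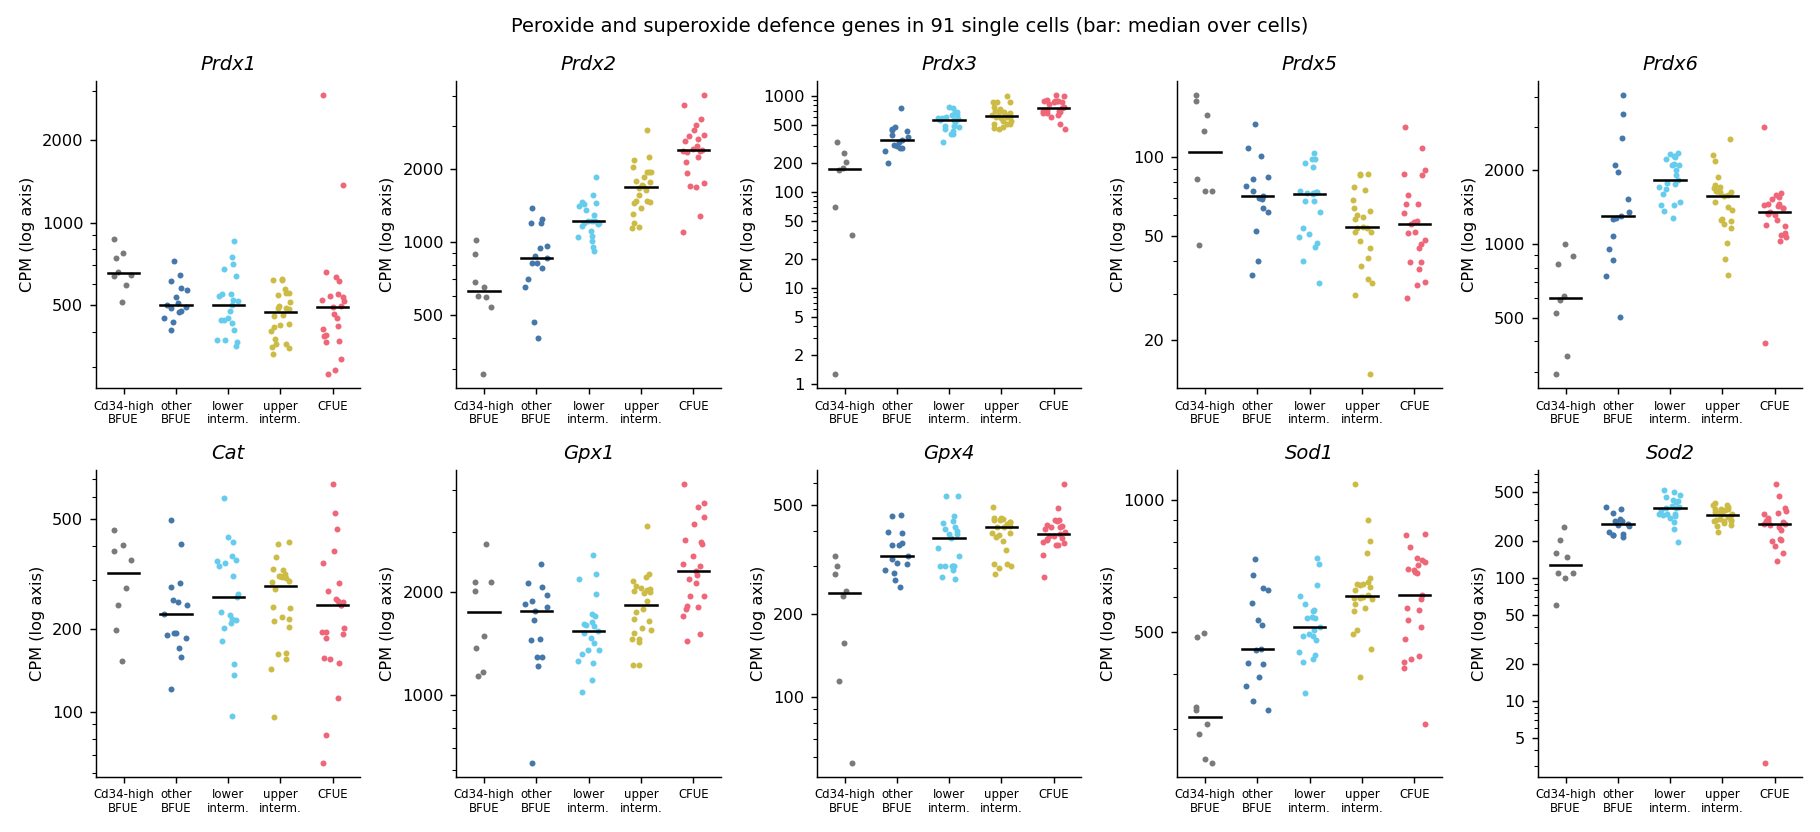
CPM of each member (vertical log axis) in each of 91 cells by group, with the bar at the median over cells. The Prdx2 medians run from 627 CPM in Cd34-high BFUE cells to 2389 CPM in CFUE, while the Cat medians lie between 226 and 318 CPM in all groups.

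Cat, the peroxisomal catalase, differed little. Its summed levels were 260.1 CPM in BFUE, 278 and 262 CPM in the intermediate gates and 259 CPM in CFUE, and its cells ranged from 65.4 to 673 CPM within CFUE alone, or from 82.6 CPM without well D10. The CFUE to BFUE ratio was 0.995 (0.967 to 1.02), an interval that includes 1, and 1.09 without the Cd34-high cells. Its direction varied over the alternative settings, with log2 ratios from -0.09 to 0.10.

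Gpx1, the cytosolic and mitochondrial glutathione peroxidase shown above by its selenocysteine codon, had cell medians of 1755 CPM in Cd34-high cells and 1766 CPM in other BFUE cells. The median was 1544 CPM in the lower and 1834 CPM in the upper intermediate gate, and 2304 CPM in CFUE. CFUE cells ranged from 1437 to 4166 CPM, or to 3646 CPM without well D10, and 7 of 23 lay above every BFUE cell. The sum over CFUE was 1.44-fold that over BFUE (1.43 to 1.46), from 1673 to 2415 CPM, which is within 1.5-fold. Without the Cd34-high cells it was 1.48-fold. It passed 1.5-fold with TMM or DESeq2 scaling, and in plate rows E to H at 1.59-fold. The interquartile ranges of neighbouring gates overlapped at each step.

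Gpx4, which reduces lipid peroxides in membranes, was level after the BFUE gate. Its lowest, median and highest cells were 57.4, 238 and 326 CPM in Cd34-high cells and 250.2, 324 and 459.9 CPM in other BFUE cells. Summed levels were 374, 394 and 403 CPM in the 3 later gates. CFUE was 1.33-fold BFUE, and 1.17-fold without the Cd34-high cells. Its pseudogene Gpx4-ps2 shares 68.9% of the 50-base stretches of the Gpx4 transcript, so its values are uncertain by the reads that the counting gave to the copy or discarded.

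Sod1, the copper-zinc dismutase of the cytosol, had summed levels of 348 CPM in Cd34-high and 494 CPM in other BFUE cells. The later gates were at 535, 639 and 612 CPM, and the highest single cell was at 1089 CPM in the upper intermediate gate. CFUE was 1.37-fold BFUE, or 1.24-fold without the Cd34-high cells. Between the upper intermediate and CFUE gates the cells overlapped through most of their range. Of the 50-base stretches of Sod1, 23.1% are shared with the pseudogene Gm8566.

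Sod2, the manganese dismutase of mitochondria, was highest in the lower intermediate gate, as Prdx6 was. Its lowest, median and highest cells were 60.8, 129 and 263 CPM in Cd34-high cells, 217, 274 and 383 CPM in other BFUE cells, and 195, 374 and 518 CPM in the lower intermediate gate. CFUE cells ranged from 3.17 CPM, 3 reads in well D10, to 587 CPM, and from 139 CPM without D10. CFUE was 1.19-fold BFUE, and 1.01-fold the other BFUE cells. The lower intermediate gate was 1.53-fold BFUE, and 1.30-fold without the Cd34-high cells. Summed levels were lower at each later step, with 362, 326 and 281 CPM.

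The Cd34-high cells were low in 4 members relative to the other BFUE cells, and no member was higher by 1.5-fold. Of 9224 genes measured, 25.4% were lower and 30.4% higher by 1.5-fold or more, so the members' count of lower calls stands above that share and their count of higher calls below it, shares that rest on 10 genes. Prdx6 was 2.86-fold lower (2.79 to 2.93), Prdx3 2.36-fold, Sod2 1.91-fold and Gpx4 1.61-fold. The Gpx4 log2 ratio was -1.02 in plate rows A to D and -0.45, within 1.5-fold, in rows E to H. That of Prdx6 was -1.96 and -0.98 in the same rows, and Sod1 passed the limit in rows A to D (-0.76). No Cd34-high cell was above the median of the other BFUE cells for Prdx3, Prdx6 or Sod2. For Sod2, 7 of 8 lay below all 15 of the others. Sod1 was 1.42-fold and Prdx2 1.35-fold lower, while Prdx5 was 1.47-fold, Cat 1.29-fold and Prdx1 1.28-fold higher. The members' median log2 ratio was -0.47, against 0.03 over all genes.

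Markers of other blood lineages moved with this split, and their part in the result was not tested. Of 8 neutrophil and monocyte markers 3 reached 10 CPM in the Cd34-high cells, Elane was at 0, and the list summed to 2661 CPM (294 to 6989 by cell) against 31.7 CPM (1.32 to 88.7) in the other BFUE cells. Of 6 lymphoid markers 2 reached 10 CPM, Dntt and Cd3e were at 0, and the sums were 810 CPM (0.576 to 1579 by cell) and 1.37 CPM (0 to 5.58). The 11 stem and multipotent progenitor markers, which include Cd34 itself (1404 and 1.56 CPM), summed to 3110.5 and 879 CPM. Of these, Lmo2 (177 and 556 CPM) and Gata2 (94.5 and 235 CPM) went the other way. The 8 erythroid progenitor markers, of which Nfe2 is also in the Nrf2 list below, summed to 542 (215 to 1186 by cell) and 2161 CPM (1098 to 3715). Megakaryocyte markers summed to 324 and 261 CPM, with Pf4 at 0. Mast cell and basophil markers summed to 41.4 and 1.95 CPM, with Mcpt8, Fcer1a and Ms4a2 at 0. Their median Cd34-high cell was at 0 and the highest at 286 CPM. Endothelial and stromal markers summed to 201 and 13.2 CPM. In the Cd34-high cells this sum was Pecam1 (108 CPM) and Pdgfrb (92.3 CPM), with Cdh5, Kdr, Lyve1 and Col1a1 at 0. Hepatoblast markers were at 245 CPM in both. Macrophage markers were at 10.7 and 3.70 CPM, with C1qa and C1qb at 0. Late erythroblast markers summed to 112 and 396 CPM, and to 3507 CPM in CFUE.

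Summed over the 10 members, CPM was 5015 in Cd34-high cells, 6664 in other BFUE cells, 7450 and 7907 in the intermediate gates and 9136 in CFUE. Of the member reads, Prdx2 was 13.1% in BFUE and 26.2% in CFUE, and Prdx6 was 23.7% and 15.2%. Gpx1 was 27.2% and 26.4%, Sod1 7.29% and 6.70%, and Gpx4 4.94% and 4.41%. Members were also scaled per kilobase of the principal transcript, which was chosen by annotation and not by its use in these cells. On this scale the order in CFUE was Gpx1 (2253 CPM per kb), Prdx2 (1487), Sod1 (955), Prdx6 (580.0), Prdx3 (514) and Gpx4 (420.2). Prdx1 (246), Cat (99.0), Prdx5 (77.9) and Sod2 (48.0) were the lowest on that scale. In BFUE Gpx1 was also first (1561 CPM per kb), and Prdx2 (499.8) was below Sod1 (699) and Prdx6 (611). The order depends on the length used. Per kilobase of all annotated exons of a gene, Gpx1 (1676) and Prdx2 (786) were again first in CFUE, but Sod1 (154) was below Prdx3 (514), Prdx6 (288), Gpx4 (234) and Prdx1 (186), and in BFUE Prdx2 (264) was above Sod1 (113).

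From cell to cell within a gate the members did not move as a block. Over the 45 pairs of members the median Spearman rho within a group lay between 0.02 and 0.09, and some pairs were strongly ordered. In the 23 CFUE cells Prdx2 and Gpx1 had a rho of 0.82 and Prdx6 and Gpx1 one of -0.56. These were the highest and lowest of the 45 pairs there. In Cd34-high, other BFUE, lower and upper intermediate cells, Prdx2 and Gpx1 had 0.07, 0.38, 0.55 and 0.48. In the same order Prdx6 and Gpx1 had -0.43, 0.29, 0.31 and -0.45. Well D10, the CFUE cell with the highest Gpx1 and lowest Prdx6, is included, and no rho is given without it. A score of 11 late erythroblast genes (mean log2 of CPM plus 10) had a rho of 0.69 with Prdx2, 0.66 with Gpx1, 0.48 with Sod1 and -0.43 with Prdx6 in the 23 CFUE cells. The same score had a rho of -0.16 with read depth there. These points share a plate, and the genes of a cell share its library and total.

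**Figure D4:**
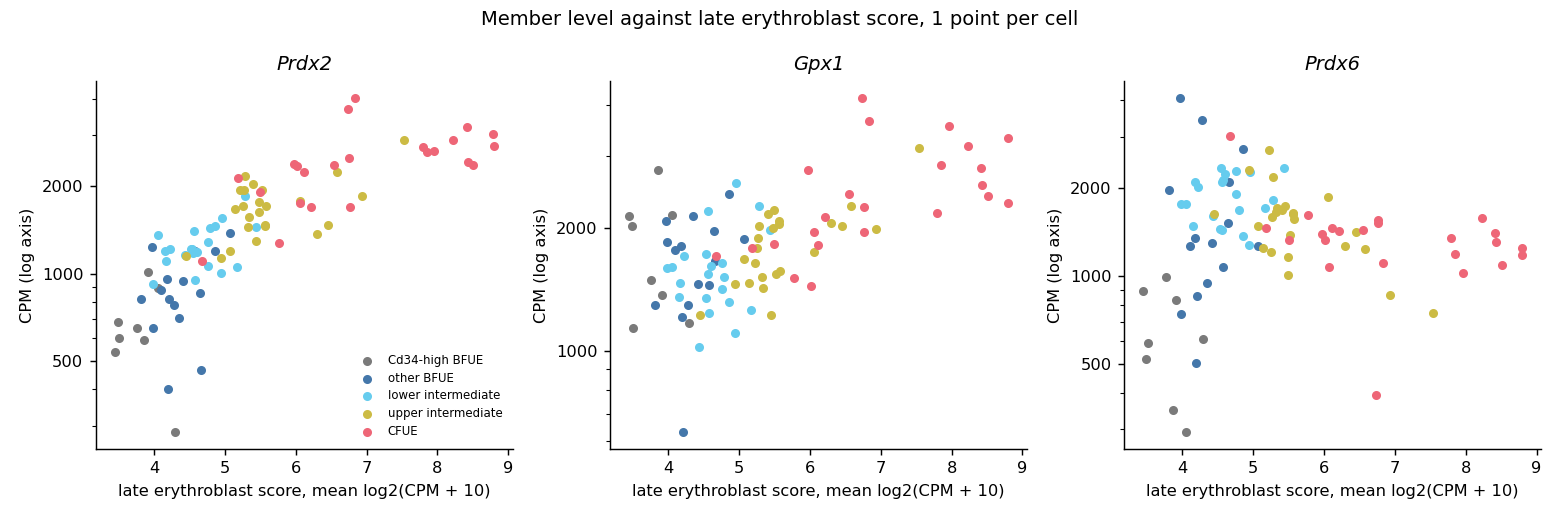
CPM of Prdx2, Gpx1 and Prdx6 (vertical log axes) against the late erythroblast score (mean log2 of CPM plus 10 over 11 genes), 1 point per cell, coloured by group. Within CFUE, Prdx2 and Gpx1 are higher in cells of higher score (rho 0.69 and 0.66), and Prdx6 lower (-0.43).

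Among 4068 other genes of 50 CPM or more, those most like Prdx2 across all 91 cells included Blvrb (Spearman rho 0.92) and Hba-a1 (0.90), with rho of 0.66 and 0.60 once each group's own level was removed. Blvrb is biliverdin reductase B and Hba-a1 an alpha globin. The genes most like Prdx3 included Prdx2 (0.81) and Blvrb (0.79), and within groups these values were 0.39 and 0.28. Gpx1 was most like Mgst3 (0.65), a microsomal glutathione transferase, and Sod1 most like Car2 (0.65), a carbonic anhydrase. Prdx6 was most like Nsun2 (0.62), Sod2 most like Ipo5 (0.56), Gpx4 most like Lmna (0.53), Prdx5 most like Ech1 (0.49), Prdx1 most like Ppia (0.45) and Cat most like Golga5 (0.41). Within groups these values were 0.58 for Gpx1, 0.51 for Sod1, 0.35 for Prdx6 and 0.39 for Sod2. They were 0.17 for Gpx4, 0.44 for Prdx5, 0.37 for Prdx1 and 0.40 for Cat.

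Of the partner systems, thioredoxins reduce peroxiredoxins, and of 11 measured genes of that list 2 were higher and 4 lower in CFUE than in BFUE (median log2 ratio -0.10, against -0.14 over all genes). The mitochondrial pair were the 2 that were higher. Against the other BFUE cells 1 was higher and 3 lower (median 0.03, against -0.11 over all genes). Over all measured genes 13.7% were higher and 29.6% lower in CFUE than in BFUE, and 13.6% and 24.9% without the Cd34-high cells. Txnrd2, mitochondrial thioredoxin reductase, was 2.34-fold higher (271 against 116 CPM), or 2.60-fold without the Cd34-high cells. Txn2, mitochondrial thioredoxin, was 1.62-fold higher (614 against 380 CPM), or 1.42-fold without the Cd34-high cells. Their cytosolic counterparts, named here after their values were seen, were at 379 and 405 CPM (Txn1) and 259 and 241 CPM (Txnrd1) in CFUE and BFUE. Txnip, which binds and inhibits thioredoxin, was 3.68-fold lower (56.8 against 209 CPM), or 3.53-fold without those cells. Sesn1, a sestrin, was 2.31-fold lower, and 1.02-fold lower without the Cd34-high cells.

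For glutathione, 5 of 11 measured genes were higher and 2 lower (median 0.24), and 3 higher and 2 lower without the Cd34-high cells (median 0.22). Over all genes 13.7% were higher and 29.6% lower (median -0.14), and 13.6% and 24.9% without those cells (median -0.11). Glrx5, a mitochondrial glutaredoxin of iron-sulphur cluster assembly, was 2.54-fold higher (485 against 191 CPM). Gclm, the modifier subunit of glutamate-cysteine ligase, was 1.95-fold higher, and Gss, glutathione synthetase, 1.71-fold higher. Without the Cd34-high cells these were 1.95-fold, 1.38-fold and 1.44-fold. Glrx3 was at 260 and 320 CPM.

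Among genes of NADPH supply 4 of 12 were higher and 4 lower (median -0.17), and 2 higher and 4 lower without the Cd34-high cells (median -0.22). The shares over all genes were 13.7% higher and 29.6% lower, and 13.6% and 24.9% without the Cd34-high cells. Nadk2, mitochondrial NAD kinase, was 2.76-fold higher (72.4 against 26.3 CPM), or 2.16-fold without those cells. Idh2, a mitochondrial NADP isocitrate dehydrogenase, was 2.84-fold lower (190 against 541 CPM), its cytosolic counterpart Idh1 3.37-fold lower, and Nnt, the mitochondrial NADPH-forming transhydrogenase, 3.76-fold lower (24.9 against 93.6 CPM). All 3 were also lower without the Cd34-high cells, by 1.93-fold, 2.83-fold and 2.90-fold. The C57BL/6J substrain is known to carry a deletion within Nnt, so its reads need not mean a working enzyme.

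Of 11 measured regulators and targets of the Nrf2, Bach1 and FoxO factors 1 was higher and 2 lower (median 0.02), and 1 higher and 3 lower without the Cd34-high cells (median -0.09). Beside this list and the others of this paragraph stand 13.7% of all genes higher and 29.6% lower. Without the Cd34-high cells these shares were 13.6% and 24.9%. Blvrb was 3.81-fold higher, with 1093 against 287 CPM and 9.35 CPM in Cd34-high cells, and Nfe2, an erythroid relative of Nrf2, was 2.29-fold lower. The same ratios were 2.64-fold and 2.15-fold without the Cd34-high cells. Blvra was at 100.4 and 76.1 CPM, and Keap1, the inhibitor of Nrf2, at 73.7 and 94.7 CPM. Keap1 passed the limit, at 1.54-fold lower, against the other BFUE cells. None of 7 selenoprotein synthesis genes passed 1.5-fold (median 0.10), with Eefsec, the selenocysteine elongation factor, at 92.1 and 118 CPM and Secisbp2 at 47.8 and 64.5 CPM. Against the other BFUE cells 1 was higher (Sepsecs, named after its value was seen) and 1 lower (Eefsec, 1.53-fold; median -0.02). Of 9 other selenoproteins 2 were lower (median -0.03): Selenop, 4.18-fold, and Selenos, 1.52-fold. Against the other BFUE cells only Selenop was lower, 1.79-fold (median -0.07), and Selenos was within 1.5-fold. Of 2 other peroxidases or dismutase partners measured, Prdx4 (101 and 130.1 CPM) and Ccs (85.3 and 82.7 CPM), neither passed (median -0.16), nor without the Cd34-high cells (median 0.02).

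**Figure D5:**
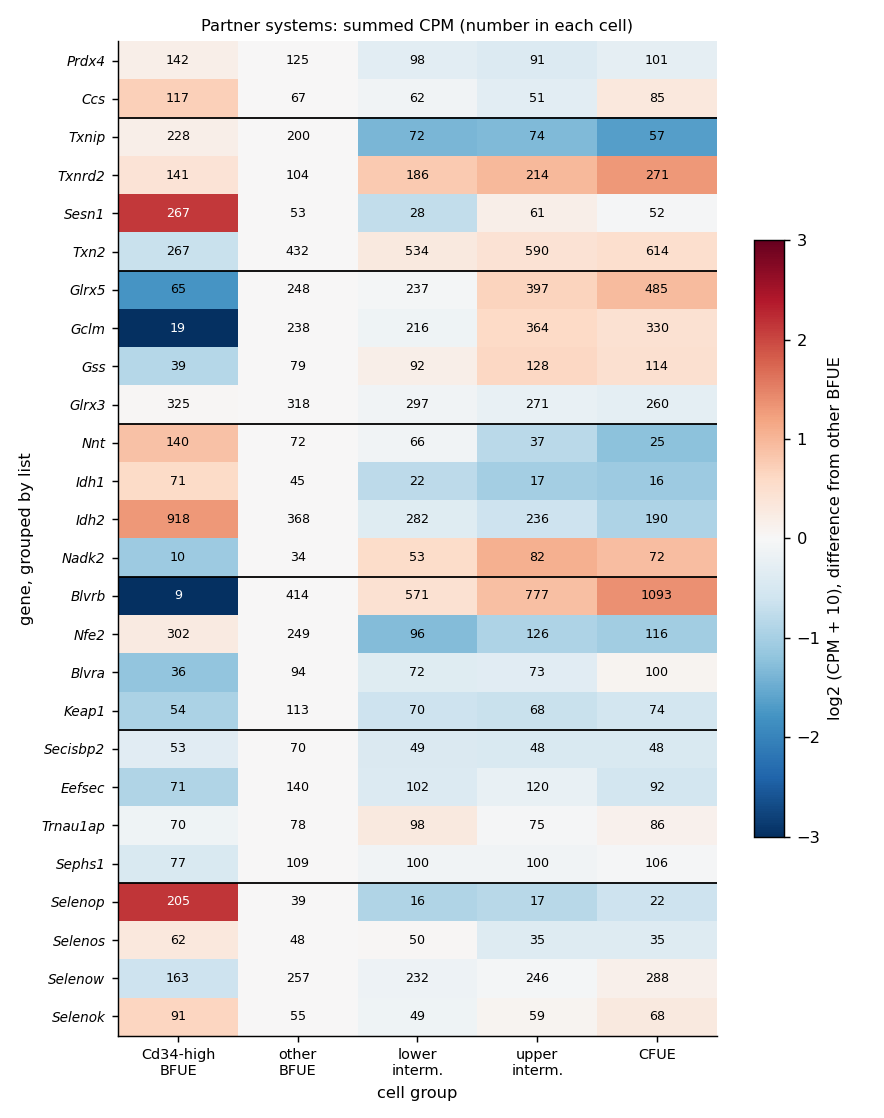
Summed CPM (printed number) of partner genes by cell group, coloured by the difference in log2 of CPM plus 10 from the other BFUE cells, with lines between lists. Blvrb runs from 9 CPM in Cd34-high BFUE cells to 1093 CPM in CFUE, and Nnt from 140 to 25 CPM.

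The list of superoxide and peroxide sources, which also holds Mpo, an enzyme that uses peroxide, had the lowest median. In CFUE against BFUE 7 of 9 measured genes were lower and 1 higher (median -1.29), against 29.6% and 13.7% of all genes. Without the Cd34-high cells 4 of 8 were lower and 1 higher (median -0.77), against 24.9% and 13.6% of all genes. Cyba, the NADPH oxidase subunit p22phox, was 8.69-fold lower (13.3 against 116 CPM), and 8.33-fold lower without the Cd34-high cells. Mpo, the neutrophil myeloperoxidase, was at 1.72 against 751 CPM, and at 2366 CPM in the Cd34-high cells and 13.6 CPM in the other BFUE cells. Rac2, an oxidase partner of blood cells, was 2.44-fold lower in CFUE, and 1.07-fold lower without the Cd34-high cells. When Cd34-high and other BFUE cells were compared, 7 of the 10 source genes measured were higher in the former and 1 lower (median 1.59). The Nrf2 list went mostly down in that comparison, with 6 of 11 lower and 1 higher (median -0.84). Beside both counts stand 30.4% of all 9224 genes higher and 25.4% lower (median 0.03).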

How the data were processed

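Read counts of 96 wells, 1 sorted cell each, were deposited as whole-number counts per gene without normalization. Per the submitters' processing notes the reads were aligned with STAR 2.4 to GRCm38 and counted with featureCounts. Annotation release, strand setting and treatment of shared reads were not given in the sources used here, and Smart-seq2 does not mark strand. The table's header has an extra empty cell, so names were taken in order. Of its gene IDs, 99.7% were found in GENCODE M21, and 77 symbols belong to more than 1 ID, none of them a member.

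Wells under 50000 reads (5) were left out. No doublet caller was run, since wells were sorted with 1 cell each. Counts were summed over the cells of a group and divided by summed reads (CPM), with exact Poisson intervals. Ratios carry exact conditional binomial intervals (95%). These were tried on simulated Poisson counts, the counting model they assume, so that trial does not cover spread between cells. A limit of 3 reads is what a count of 0 allows. With 1 sample a gate no test was run: a gene counts as higher or lower at 1.5-fold, among genes of 10 CPM or more in either group. Pathway and marker lists (8 and 10) and the members were chosen with earlier results of these data known. Named are all members, up to 4 genes of each pathway list with 50 CPM or more and the largest log2 difference between CFUE and BFUE, and the 3 genes most like each member by Spearman rho over 91 cells (only the first for 8 members). A few genes that these rules name are not reported here.

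Alternatives were means of per-cell CPM, TMM (edgeR 4.0.16) and DESeq2 1.42.0 factors, totals without 402 mitochondrial, globin and ribosomal RNA genes, the upper plate rows (A to D) or the lower ones (E to H), all wells, thinning to 500000 reads, the top cell of each gene left out and a 2-fold limit. Leaving out well D10, well D3 or the Cd34-high cells was chosen after seeing the data. Python 3.11.15, scipy 1.17.1 and R 4.3.3 were used. Sequences are from RefSeq (promoters, GRCm38.p6) and GENCODE M21 transcripts.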

Additional observations from a re-analysis of the deposited data

Results flagged for a closer look

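Reads of the 10 members were also present in the 5 wells left out for low depth, above the 3 reads that a count of 0 allows. The lower intermediate wells E5, G5 and H4 held 135, 88 and 119 member reads, and the BFUE well D2 held 62. The CFUE well C12 held 648 member reads of 14286 in all, or 45359 CPM, where the kept CFUE cells had 6894 to 12995 CPM (12864 without well D10). The other 4 wells were between 4971 and 8305 CPM. The cause was not tested.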

How the results depend on the processing

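No paired analysis was possible because the shared numbers 1 to 24 only name wells, and each gate is 1 sample with no test. Member counts at 1.5-fold moved as follows. For CFUE against BFUE, 1 member was lower in plate rows A to D, with the top cell of each gene left out, and without well D10; without the Cd34-high cells 1 was lower in rows A to D. For CFUE against the upper intermediate gate 1 was higher in rows A to D (Prdx1, 1.55-fold). For the lower intermediate gate against BFUE 0 were higher at 2-fold and 0 without the Cd34-high cells. For Cd34-high against other BFUE cells 2 were lower at 2-fold, and 1 was higher with DESeq2 factors and 1 in rows E to H. All other counts stayed within 1.5 times the reported one. Of 620 alternative log2 ratios of members, 335 lay within the counting interval, 285 outside it, and 0 changed the sign of a called ratio. TMM moved the median of all genes by 0.11 for CFUE against BFUE, and TMM and DESeq2 each by 0.11 without the Cd34-high cells. Leaving out the top cell moved it by -0.22 for Cd34-high against other BFUE cells. Depth limits are small: 3 reads were 0.0786 to 0.251 CPM over a group. Cells, plate position and gate share 1 plate, and no value measures the spread between animals.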
